A study of Rattus norvegicus with 56 samples.

Results

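Plscr1 and 4 other genes of the interferon response, Mx1, Mx2, Irf1 and Irf7, were followed in rat mammary gland across individual rats, oestrous stages and pools of labelled RNA. They were chosen by gene symbol, with the treatment difference in individual rats already known: Plscr1 was among the largest falls, while the others belong to the same response. Every probe set carrying 1 of the 5 symbols was taken, which gave 6 probe sets (Mx2 has 1369202_at and 1387283_at) of 15866 on the array and 5 of 10411 named genes. Treated minus control values of these genes are therefore given as descriptions, with no test. Tests are given for oestrous stage, for the treatment by stage interaction, and for how the genes vary between rats within an arm, none of which entered the choice. Treatment calls by limma are also given for other genes, in lists of interferon, scramblase and cell type marker genes. Those lists were drawn up with earlier results of these data known, so their treatment calls are descriptions too.

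The rats were female Wistar Furth, an inbred strain. In one arm 12 rats had a treatment labelled RXR, and the other arm held 12 controls. RXR commonly stands for the retinoid X receptor, a nuclear receptor; compound, dose, duration and age are not stated in the labels. Of the treated rats 6 were in diestrus, 3 in estrus, 1 in proestrus and 2 in proestrus or estrus. Of the controls 9 were in diestrus, 2 in estrus and 1 in proestrus or estrus. Each arm also had 6 pools of 2, 4 pools of 3 and 1 pool of 12, mixed from the labelled targets of these rats; the pool of 12 had 4 arrays, and rat 3 of each arm had 2 more. Pools and repeat arrays hold targets of the same rats, so they repeat the measurement, not the experiment. In each arm, 3 of the pool-of-12 arrays carry a source label of individual glands, and the titles, which give pools, were followed.

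Type I interferons are secreted when cells sense viral nucleic acid. Interferons act through receptors and Jak kinases on Stat proteins. The Stat complexes bind interferon-stimulated response elements (ISRE) after type I interferon and gamma-activated sites (GAS) after interferon gamma. Irf1 is a transcription factor that interferon gamma induces, and Irf7 is one that drives the production of type I interferon and rises in its presence. Mx1 and Mx2 encode dynamin-like GTPases that block virus replication, in rodents a nuclear and a cytoplasmic protein. Plscr1 encodes phospholipid scramblase 1, a calcium-binding membrane protein first known for moving phospholipids between membrane leaflets, whose gene interferon also induces.

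Start-site sequences were taken from RefSeq (GRCr8) to look for the elements through which interferon acts. For 4 of the 5 genes a start-site sequence was available. Mx2 was not in the table used. The 160 bases before the start site are printed 5′ to 3′ on the gene's strand, with an ISRE-type or GAS-type match in capitals. Plscr1 lies at chr8:101663961-101664120 on the plus strand, Irf1 at chr10:38417775-38417934 on the plus strand, Irf7 at chr1:205800024-205800183 on the minus strand and Mx1 at chr11:50294607-50294766 on the minus strand.
Plscr1: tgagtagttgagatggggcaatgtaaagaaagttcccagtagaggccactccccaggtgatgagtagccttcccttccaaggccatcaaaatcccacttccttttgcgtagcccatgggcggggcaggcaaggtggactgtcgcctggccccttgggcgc
Irf1: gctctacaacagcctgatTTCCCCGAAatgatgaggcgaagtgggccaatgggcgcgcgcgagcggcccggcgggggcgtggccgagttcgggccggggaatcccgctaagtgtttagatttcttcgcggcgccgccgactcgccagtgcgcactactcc
Irf7: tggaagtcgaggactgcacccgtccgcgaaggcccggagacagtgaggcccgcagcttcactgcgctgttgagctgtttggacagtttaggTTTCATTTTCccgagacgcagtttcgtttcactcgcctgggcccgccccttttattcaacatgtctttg
Mx1: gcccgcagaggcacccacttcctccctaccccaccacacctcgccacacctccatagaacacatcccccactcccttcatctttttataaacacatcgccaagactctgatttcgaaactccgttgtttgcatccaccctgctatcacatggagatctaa
The capitals in Irf7 mark an ISRE-type match (GAAA, any 2 bases, GAAA) read on the opposite strand, from base -69 to base -60 before the start. Those in Irf1 mark a GAS-type match, TTCNNNGAA, from base -142 to base -134. The search covered both strands of the 300-base window, 250 bases before to 50 after the start. An ISRE-type match was in 3.92% and a GAS-type match in 8.87% of all 33469 RefSeq windows of that length. Neither motif was found in the Plscr1 or Mx1 window. The half-site of retinoid X receptor pairs, AGGTCA, was in 16.2% of all windows and in none of the 4 member windows. A match is a run of letters, not a shown binding site, and the start used for Plscr1 lies 1609 bases inside the gene's outermost annotated limit, that for Irf7 520 and that for Mx1 93.

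The array medians lay between 7.40 and 7.48 on the log2 scale, and the number of arrays limits the precision. One array, control pool of 12 technical rep 3, stood apart: across all probe sets its deviations from the mean rat had r = 0.0801 with those of its pool's first array, against 0.565 to 0.820 for the other 5 repeat arrays of these pools. Across all probe sets 2865 of 15866 (18.1%) differed between treated and control rats by limma at an adjusted p of 0.05. Mx1 and the Mx2 probe set 1387283_at had low means, at percentile 13.2 of all probe sets and below it, and no detection calls were used here. Mx1 and Mx2 are related in sequence, and whether their probe sets bind each other's transcripts was not tested.

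Plscr1 was lower in the treated glands in every kind of sample. The control rats ran from 8.14 through a median of 8.59 to 8.77 log2, and the treated rats from 7.08 through 7.84 to 8.20. All 12 treated rats lay below the control mean and 9 lay below every control, so the ranges touched only through control rats 14 and 6 (8.14 and 8.17) and treated rats 4, 5 and 14 (8.20, 8.14 and 8.14). The means were 7.85 ± 0.31 (SD, n = 12) and 8.54 ± 0.21 (SD, n = 12), a difference of -0.69 ± 0.10 log2 (SE) or 1.62-fold lower, the 17th lowest of all 15866 differences.

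Irf1 and Irf7 lay lower on average in treated rats, by less than the spread between rats. Irf1 ran from 8.53 through 8.83 to 9.40 log2 in treated and from 8.50 through 9.04 to 9.56 in control rats, a difference of -0.16 ± 0.10 (SE). Irf7 ran from 8.63 through 8.94 to 9.45 in treated and from 8.81 through 9.08 to 9.67 in control rats, a difference of -0.19 ± 0.10. For both genes 9 of 12 treated rats lay below the control mean, and the arms overlapped over most of their range.

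The Mx genes, the textbook readout of type I interferon, differed between the arms by less than the spread between rats. Mx1 ran from 5.24 through 5.44 to 5.74 log2 in treated and from 5.20 through 5.47 to 5.95 in control rats, a difference of -0.04 ± 0.07 (SE). The brighter Mx2 probe set, 1369202_at, ran from 6.96 through 7.35 to 7.96 and from 7.10 through 7.53 to 8.21, a difference of -0.17 ± 0.12. The dimmer one, 1387283_at, ran from 4.69 through 4.84 to 5.15 and from 4.68 through 4.87 to 5.34, a difference of -0.07 ± 0.07. Both Mx2 probe sets overlapped between the arms, and they followed each other between rats (r = 0.773 after removal of the arm means, n = 24).

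**Figure D1:**
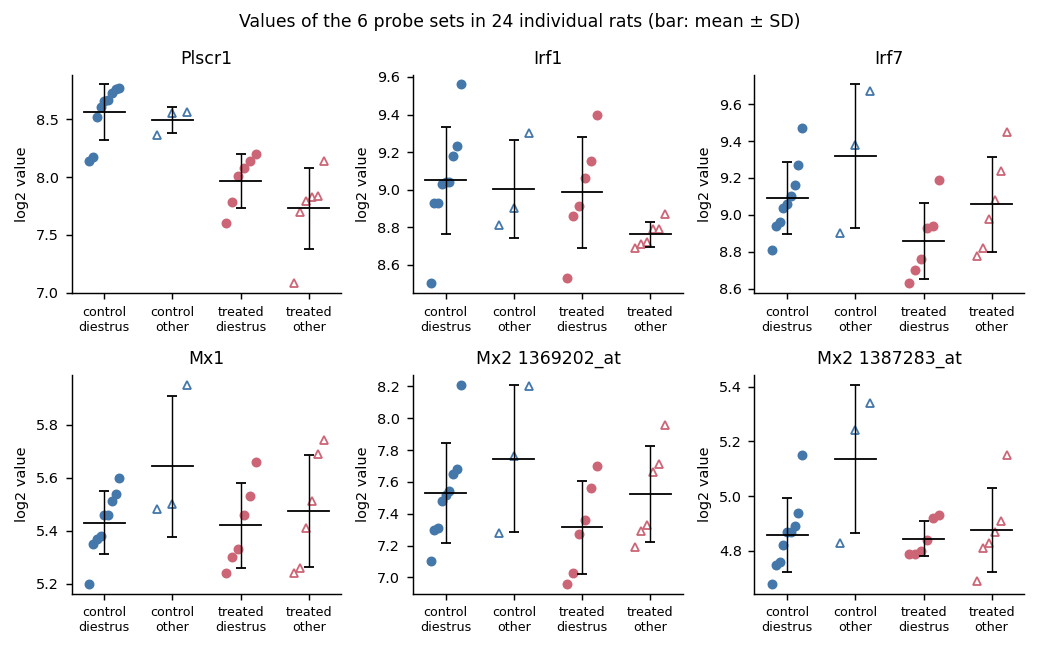
Log2 value of each of the 6 probe sets (y axis, 1 panel each) in the 24 individual rats, by arm and by stage (diestrus, filled circles; proestrus or estrus, open triangles). Lines and error bars give mean ± SD. Plscr1 is lower in treated rats, with 9 of 12 below every control, while the other panels overlap between the arms.

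The fall of Plscr1 was found again at each degree of pooling, with narrower ranges. Treated pools of 2 lay between 7.86 and 8.24 and control pools of 2 between 8.29 and 8.79, a difference of -0.57 ± 0.10 (SE between pools). No treated pool reached a control pool, a separation downwards seen in 1.78% of all probe sets in pools of 2. Pools of 3 lay between 7.72 and 8.04 in treated and between 8.50 and 8.73 in control glands (-0.76 ± 0.09), where 7.25% of probe sets separated in this way. The 4 arrays of the treated pool of 12 read 8.01, 7.88, 8.19 and 8.04 and those of the control pool 8.52, 8.62, 8.69 and 8.52 (-0.56 ± 0.08), where 9.09% separated. Leaving out the control array that stood apart gave -0.58 for Plscr1. Since the pools hold the rats on which Plscr1 was picked, these values repeat the measurement on other arrays and add no animals.

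For the other genes the pool differences were small, some smaller and some larger than those of the rats. Irf7 differed by -0.15, -0.22 and -0.12 log2 in pools of 2, 3 and 12, and Irf1 by -0.13, -0.22 and -0.14. The arrays of the pools of 12, which repeat 1 pool per arm, did not overlap for Irf1 (8.95 to 9.08 in treated, 9.12 to 9.16 in control arrays). Such a separation downwards was seen in 9.09% of all probe sets. For Irf7 they overlapped through 1 control array at 9.10, which was the array that stood apart. Mx1 changed sign between designs: 0.02 in pools of 2, 0.08 in pools of 3 and -0.12 in pools of 12. Mx2 (1369202_at) differed by -0.08, -0.15 and -0.05. Mx2 (1387283_at) differed by -0.15, -0.07 and -0.11, against -0.07 in rats, and its ranges overlapped between the arms in every design.

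**Figure D2:**
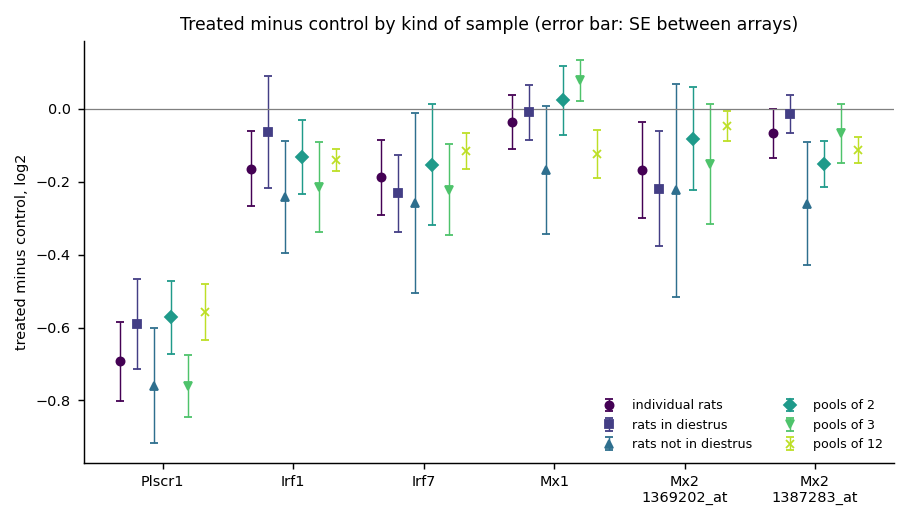
Treated minus control difference in log2 (y axis) of each probe set (x axis) in individual rats, in rats of each stage class and in pools of 2, 3 and 12 (symbols). Error bars are the SE between arrays from the separate variances of the arms, which for all rats differs slightly from the limma SE in the text. Plscr1 lies between -0.76 and -0.56 throughout, and Mx1 falls on both sides of 0.

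Within an arm, the rats differed in Irf1, Irf7 and Mx2 far more than repeat arrays did, and in Plscr1 less so. The SD between rats, pooled over both arms, was 0.25 for Irf1, 0.25 for Irf7, 0.32 for Mx2 (1369202_at), 0.17 for Mx2 (1387283_at), 0.18 for Mx1 and 0.27 for Plscr1. Set against the SD of repeat arrays of the same target, these were 4.49, 3.14, 3.70, 3.17, 2.16 and 1.84 times as large. The array of treated rat 3 read 7.70 for Plscr1 and its repeats 7.80 and 8.15, a spread wider than that between the 4 arrays of either pool of 12. Its 3 Irf7 values ran from 8.98 to 9.03. Control rat 3 did not show this contrast: the SD of its 3 arrays was 0.12 log2 for Plscr1 and 0.13 for Irf7, with Irf7 at 9.67, 9.75 and 9.92.

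Pools of 2 were then set against the mean of their own 2 rats, after removal of the arm means, which asks whether a rat's value is found again on a second array; this comparison was chosen after the data were seen. A pool of rats high in Irf1, Irf7 or Mx2 was itself high. Over the 12 pools, Irf1 gave r = 0.936 (rho = 0.944, permutation within arms, two-sided, adjusted p = 0.00024 over 6 relations; r = 0.923 without the 2 farthest pools). Mx2 (1369202_at) gave r = 0.913 (rho = 0.923, permutation adjusted p = 0.0003; 0.880 without the 2 farthest), and Irf7 r = 0.921 (rho = 0.832, permutation adjusted p = 0.00136; 0.948). The dim probe sets were looser, with r = 0.711 for Mx2 (1387283_at, rho = 0.688, permutation adjusted p = 0.0163; 0.815) and r = 0.689 for Mx1 (rho = 0.793, permutation adjusted p = 0.0135; 0.558).

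For Plscr1 no relation of pools to their rats was found within an arm (r = -0.000397, rho = -0.00699, permutation p = 0.999; r = -0.134 without the 2 farthest pools). The pool of treated rats 2 and 3, which read 7.08 and 7.70 alone, read 8.06, and the pool of 3 that added rat 5 (8.14) read 8.04. The pool of control rats 13 and 15, at 8.66 and 8.77, read 8.29. Over all 15866 probe sets the median r of pools with their rats was 0.320, and over the 1119 probe sets that varied between rats at least as much as Plscr1 it was 0.904. The difference between the arms in Plscr1 was repeated by every design, while the order of rats within an arm was not.

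**Figure D3:**
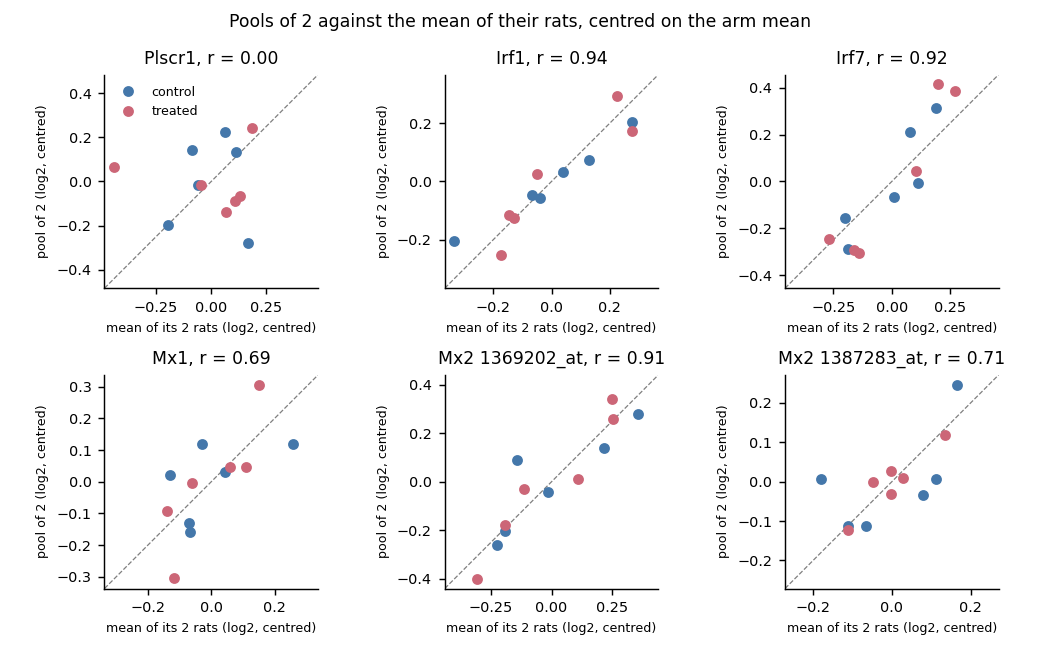
Each of the 12 pools of 2 (6 treated, 6 control), its log2 value (y axis) against its 2 rats averaged on the linear scale and taken to log2 (x axis), both centred on the arm mean; the dashed line is equality. Irf1, Irf7 and Mx2 (1369202_at) lie along the line (r = 0.91 to 0.94), and Plscr1 does not, with the pool of treated rats 2 and 3 at the far left.

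Between rats of the same arm, Mx1, Mx2 and Irf7 rose and fell together, and no pair with Irf1 or Plscr1 passed the test. Of 14 pairs of probe sets of different genes, 5 passed an adjusted p of 0.05 (permutation within arms, two-sided, n = 24), each positive and each among Mx1, Mx2 and Irf7. The Mx2 probe set 1369202_at went with Mx1 at r = 0.862 (rho = 0.863, permutation adjusted p = 4.67e-05, with the raw p at the smallest 100000 resamples can give; r = 0.798 without the 2 rats farthest from the Mx1 median) and with Irf7 at r = 0.837 (rho = 0.897, permutation adjusted p = 4.67e-05; r = 0.837). The latter pair gave r = 0.903 in treated and r = 0.783 in control rats. Treated rat 2, in estrus, was highest of its arm in all of Irf7 (9.45), Mx1 (5.74) and both Mx2 probe sets (7.96 and 5.15). In control rats the high values fell to rats 3, 8 and 12, with 9.67, 9.38 and 9.47 for Irf7 and 7.76, 8.20 and 8.21 for Mx2. Control rat 8 also had the highest Mx1, 5.95.

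The weaker pairs showed the same sign. Mx1 with Mx2 (1387283_at) gave r = 0.755 (rho = 0.684, permutation adjusted p = 7e-05; r = 0.550 without the 2 farthest rats) and Mx2 (1387283_at) with Irf7 r = 0.792 (rho = 0.726, permutation adjusted p = 4.67e-05; r = 0.773). Mx1 with Irf7 gave r = 0.649 (rho = 0.685, permutation adjusted p = 0.00218; r = 0.573), and after quantile normalization this pair missed the threshold at r = 0.476 (permutation adjusted p = 0.0658). In the 12 pools of 2, Irf7 with Mx2 (1369202_at) gave r = 0.811 (permutation p = 0.00481, adjusted p = 0.0673 over 14 pairs), Mx1 with that probe set 0.720 (permutation adjusted p = 0.0905), and Mx1 with Irf7 0.694 (permutation adjusted p = 0.0905). With 12 pools none of the 14 pairs passed the adjusted threshold.

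Irf1, the factor most tied to interferon gamma, had no pair past the threshold. Its r was -0.0896 with Irf7 (permutation adjusted p = 0.736), 0.0495 with Mx2 (1369202_at, permutation adjusted p = 0.825), -0.118 with Mx2 (1387283_at, permutation adjusted p = 0.705) and 0.194 with Mx1 (permutation adjusted p = 0.473). Without the 2 farthest rats of each pair, r was 0.468 with Mx1, 0.225 and 0.0621 with the Mx2 probe sets and -0.204 with Irf7. These values were not tested, and the one with Mx1 depended on control rat 8 and treated rat 2. Control rat 15 and treated rat 5 had the highest Irf1, 9.56 and 9.40, and their Irf7 values were 9.06 and 9.19.

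No pair of Plscr1 with another member passed the threshold. Its r was -0.311 with Mx1, -0.241 and -0.391 with the Mx2 probe sets, -0.360 with Irf7 and 0.218 with Irf1, the smallest permutation adjusted p being 0.088. In treated rats the r with Irf7 was -0.679 and in control rats 0.0623, a difference that was not tested. Without treated rat 2, the lowest in Plscr1 and the highest in Irf7, the treated value was -0.379 (n = 11). In pools of 2 Plscr1 and Irf7 gave r = 0.0506 (permutation adjusted p = 0.9). The pair with the most negative r in rats, Plscr1 with Mx2 (1387283_at), had the opposite sign in pools of 2 (r = 0.567, permutation adjusted p = 0.288).

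**Figure D4:**
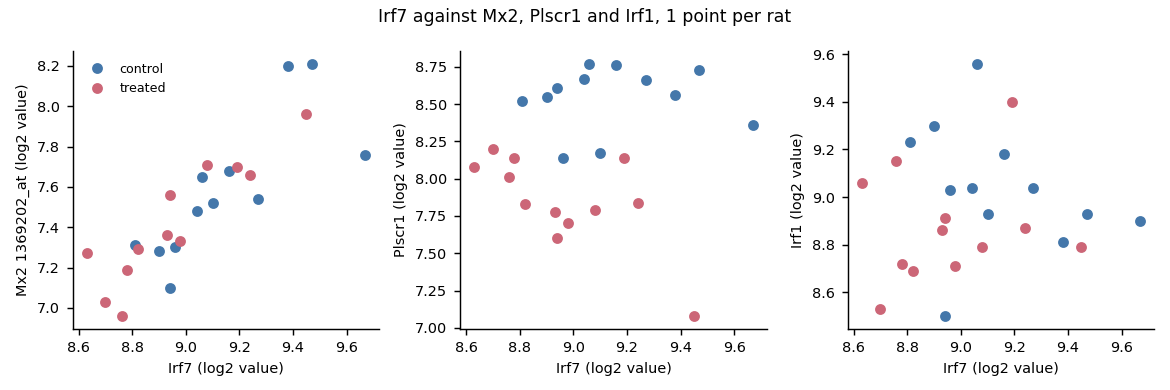
Log2 values of Irf7 (x axis) against Mx2 (1369202_at), Plscr1 and Irf1 (y axes) in the 24 individual rats, coloured by arm. Irf7 and Mx2 rise together in both arms, Plscr1 splits by arm with treated rat 2 at the lower right, and Irf1 shows no relation to Irf7 (r = -0.0896).

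The genes whose values followed each member most closely between rats are a description, over 24 rats that share array and arm means removed. Nearest to Mx1 was Mx2, then Usp18 (r = 0.813), which removes the ubiquitin-like modifier Isg15 and restrains interferon receptor signalling. For Mx2 the list read Mx1, Irf7 and Usp18 (0.771), and for Irf7 it was both Mx2 probe sets and Oas1a (0.768), an oligoadenylate synthetase that activates RNA decay. Of 15865 other probe sets, Mx2 ranked 1 and 2 for Irf7. Among the 50 probe sets most like each gene, 10 of 40 other named genes for Mx1, 11 of 40 for Mx2 and 6 of 36 for Irf7 were interferon list genes or members, against 72 of 10411 genes (0.692%) on the array.

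Nearest to Irf1 were Icam1 (r = 0.885), a leukocyte adhesion molecule that interferon gamma and other cytokines induce, Zfp36l1 (0.849), an RNA-binding protein that promotes mRNA decay, and Fbrsl1 (0.817). Among its 50 most like probe sets, 2 of 42 named genes were interferon genes. Nearest to Plscr1 were Rcl1 (0.779), which acts in ribosomal RNA processing, St14 (0.769), the epithelial membrane protease matriptase, Taf9 (0.745), a subunit of the general transcription machinery, Txlna (0.731), Ptpn2 (0.730) and Tmem201 (0.707), an inner nuclear membrane protein. Ptpn2, a phosphatase that turns off Jak and Stat signalling, was the 1 interferon list gene among 39 named, and Irf7 ranked 14162 of 15865. The likeness to Plscr1 rests on single arrays of rats whose Plscr1 order the pools did not repeat, and Ptpn2 too had no such agreement (r = -0.0938 over 12 pools), while Rcl1 had 0.635.

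Oestrous stage gave no call for any member. Rats in proestrus or estrus minus rats in diestrus, with treatment as a covariate, differed by 0.21 ± 0.10 log2 (SE) in Irf7, 0.21 ± 0.13 in Mx2 (1369202_at), 0.14 ± 0.07 in Mx2 (1387283_at), 0.12 ± 0.07 in Mx1, -0.15 ± 0.10 in Irf1 and -0.17 ± 0.11 in Plscr1. Irf7 (limma p = 0.0378) and Mx2 (1387283_at, p = 0.0472) had unadjusted values under 0.05, and the adjusted p of all 6 was 0.999. By limma 0 of 15866 probe sets (0%) were called for stage, with 581 at an unadjusted p under 0.05. Irf1 ran from 8.69 to 8.87 in the 6 treated rats outside diestrus and from 8.53 to 9.40 in the 6 in diestrus. In control rats it ran from 8.81 to 9.30 in the 3 outside diestrus and from 8.50 to 9.56 in the 9 in diestrus.

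The treatment difference of a member was not found to depend on stage, which 3 controls outside diestrus can test only weakly. Plscr1 was lower by -0.59 ± 0.12 (SE) in the 6 treated against 9 control rats in diestrus. It was lower by -0.76 ± 0.16 in 6 against 3 rats outside it, where the ranges did not overlap (7.08 to 8.14 against 8.36 to 8.56), as for 2.92% of probe sets. The interaction was -0.17 ± 0.22 for Plscr1 (limma adjusted p = 0.9997) and -0.03 ± 0.20 for Irf7, with 0 of 15866 probe sets called (0%) and 322 at an unadjusted p under 0.05. That of Irf1 was -0.18 ± 0.21, that of Mx1 -0.16 ± 0.15 and that of Mx2 (1369202_at) -0.004 ± 0.27. The largest among the members was that of Mx2 (1387283_at), -0.25 ± 0.13 (limma p = 0.0618, adjusted p = 0.9997), with treated minus control at -0.01 in diestrus and -0.26 outside it.

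The wider interferon pathway moved little with treatment. Of 67 listed genes measured besides the members, 3 rose and 4 fell by limma at an adjusted p of 0.05, against 9.81% of all genes higher and 10.4% lower. Their median difference was -0.05 log2, against -0.00 over all genes, and 45 of the 67 (67.2%) lay below 0, against 51.8% of all genes. Of the 25 antiviral effectors that interferon induces, only Ifitm2, a membrane protein that hinders virus entry, was called (0.12 ± 0.04, limma adjusted p = 0.0338). Of these, 21 had a RefSeq window, and 15 of the 21 held an ISRE-type match.

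Among the other regulatory factors, Irf8, which directs myeloid cell development, rose by 0.38 ± 0.06 log2 (SE) from 6.36 ± 0.12 to 6.74 ± 0.19 (SD, n = 12 each, limma adjusted p = 9.15e-05). Irf2, Irf3 and Irf9 were not called (0.01, -0.16 and -0.11). Of 12 macrophage and dendritic cell markers, Csf1r (0.30), Lyz2 (0.25) and Fcer1g (0.18) were called higher and Cd14 lower (-0.76) by limma at an adjusted p of 0.05. Over all genes 9.81% were called higher and 10.4% lower. Of the 12, 11 lay above 0, while 51.8% of all genes lay below 0. The part of these cells in the rise of Irf8 was not tested. In whole glands, fewer cells of a type and less RNA per cell cannot be told apart.

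Of 11 receptor and signalling genes, Jak2, a kinase of the interferon gamma receptor, fell by 0.26 ± 0.08 (limma adjusted p = 0.0275) and Ptpn2 fell by 0.21 ± 0.06 (adjusted p = 0.0225), while the other Ptpn2 probe set differed by 0.03. Of 7 sensors and adaptors, Myd88, the adaptor of Toll-like receptors, fell by 0.19 ± 0.05 (limma adjusted p = 0.0128). Of 20 targets of interferon gamma and Irf1, the proteasome activator subunit Psme1 fell by 0.17 ± 0.04 (limma adjusted p = 0.0068). B2m, the light chain of MHC class I, rose by 0.13 ± 0.03 (limma adjusted p = 0.00613), and its other probe set by 0.16. The shares over all genes were again 9.81% called higher and 10.4% called lower.

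The phospholipid scramblases, relatives of Plscr1 in function, did not move as 1 group. Plscr2, its closest relative on the list, fell from 6.94 ± 0.28 to 6.51 ± 0.26 (SD, n = 12 each), a difference of -0.43 ± 0.11 (SE, limma adjusted p = 0.00453). Ano6, a calcium-activated scramblase, fell by 0.15 ± 0.04 (limma adjusted p = 0.0172). Xkr8, which exposes phosphatidylserine on dying cells, rose by 0.17 ± 0.05 (limma adjusted p = 0.0273), and Plscr3 of mitochondria was not called (0.04 ± 0.05). Stage gave 0 calls in any of these lists, the smallest limma p being those of Casp4 (-0.17, p = 0.00623), an inflammatory caspase, and Plscr2 (-0.27, p = 0.0122), both with an adjusted p of 0.999.

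**Figure D5:**
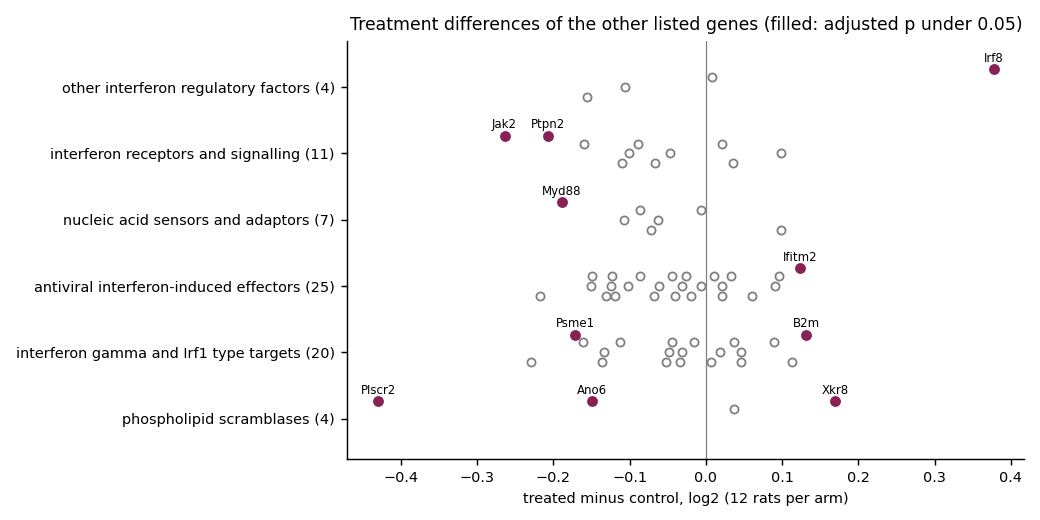
Treated minus control difference in log2 (x axis) of each measured gene of 6 lists (y axis, number of genes in brackets), 12 rats per arm; filled points are genes with a limma adjusted p under 0.05. Most interferon genes lie within 0.2 of 0, Irf8 stands to the right and Plscr2 to the left.

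Cell type markers moved beside Plscr1. Of 16 luminal epithelial markers 11 were called lower in treated rats by limma at an adjusted p of 0.05 (14 lay below 0), against 10.4% of all genes. Their mean ran from 8.94 to 9.17 log2 in treated against 9.21 to 9.43 in control rats, with no overlap. How often the mean of 16 other genes separates in this way was not counted. Within the arms Plscr1 gave r = 0.473 with that mean (rho = 0.455, permutation p = 0.0198, adjusted p = 0.149 over 30 relations chosen after the data were seen, and r = 0.494 without the 2 farthest rats). Neither this nor any other marker list passed for Plscr1. With the endothelial mean it gave r = -0.333 and rho = -0.457 (permutation adjusted p = 0.467 and 0.1605). With the macrophage and dendritic cell mean it gave r = -0.250, with -0.873 in control and 0.260 in treated rats. No luminal marker was among the 39 named genes of the 50 probe sets most like Plscr1. The list holds 16 of the 10411 named genes on the array, so such a count says little. Of 10 adipocyte markers 7 were called higher and 2 lower (8 lay above 0), against 9.81% of all genes called higher. Their mean ran from 10.0 to 10.9 log2 in treated and from 9.63 to 10.6 in control rats. Of 10 endothelial markers 1 was called lower, though 8 lay below 0. Of 14 lymphocyte markers none was called (11 lay above 0), with means from 6.29 to 6.74 in treated and from 6.28 to 6.68 in control rats. The part of these cell types in the fall of Plscr1 was not tested.

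None of the relations of Mx1, Mx2, Irf1 or Irf7 to the 5 marker lists passed over those 30. The smallest permutation adjusted p was 0.467 for r. For rho it was 0.1605, that of Mx1 with the luminal mean (rho = -0.446). With the mean of the 25 antiviral effectors, in contrast, Mx1 gave r = 0.778 (rho = 0.840, permutation adjusted p = 0.0003; r = 0.758 without the 2 farthest rats), Mx2 0.750 (rho = 0.770, permutation adjusted p = 0.0009; 0.706) and Irf7 0.707 (rho = 0.721, permutation adjusted p = 0.0018; 0.664). Irf1 (r = 0.380, permutation adjusted p = 0.451) and Plscr1 (r = -0.319, permutation adjusted p = 0.506) did not pass.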

How the data were processed

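Expression was measured on 56 Affymetrix arrays of mammary gland RNA. Per the labels, 5 µg of RNA of each rat was labelled and fragmented, and pools were made from fragmented targets to 10 µg. The deposited values were taken as log2 from their range, 4.12 to 14.1: a 16-bit scanner's maximum is 11.1 as a natural log and 16.0 as log2. Software and normalization are not stated in the labels, and no further normalization was applied. The 57 control probe sets were left out and no dim filter was applied. Symbols came from the platform table, updated by Entrez ID to GRCr8: 12783 probe sets had 1 symbol, 312 several and 2771 were not listed.

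Members and gene lists were chosen with earlier results of these data known. Treatment, stage and their interaction were tested on 1 array per rat with limma 3.58.1 (R 4.3.3), Benjamini-Hochberg adjusted over all 15866 probe sets at 0.05, and tested on simulated data. The SE of a difference over all rats is that of limma. Within a stage class and between pools, the SE of treated minus control comes from the separate variances of the arms. Nothing in the labels shows how the rats were kept or whether arrays were run in batches. Relations between rats used values centred on the arm mean and 100000 permutations within arms (Python 3.11.15, numpy 2.4.6, scipy 1.17.1). The brightest probe set stood for a gene. Named genes were the members, up to 3 called genes of each list, the 2 smallest stage p, and the 6 (Plscr1) or 3 genes most like a member. Pools were compared with their rats averaged on the linear scale. Alternatives covered normalization, a dim filter, 1 probe set per gene, array weights, stage, a rat-number block and leaving out each rat.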

Additional observations from a re-analysis of the deposited data

Results flagged for a closer look

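Among 54 groups of 4 to 10 arrays of the 6 probe sets, 1 array lay far from the others of its group: control pool of 2 replicate 6 read 5.21 log2 for Mx2 (1387283_at), against 4.85 to 4.97 in the other 5 control pools of 2. By chance about 1 in 20 groups is marked in this way. That pool holds control rats 8 and 9, which read 5.34 and 4.82 alone.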

How the results depend on the processing

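With limma, 2865 probe sets were called for treatment in individual rats. The count was 1385 in rats in diestrus and 235 in rats outside it, the latter chosen after the data were seen; the calls among the 67 interferon list genes went from 7 to 1 and 0. Both subsets hold fewer rats. Leaving out each rat gave 2520 to 3133 calls and 6 to 10 interferon list calls. Stage calls ranged from 0 to 1, the 1 without control rat 3. The interaction gave 0 throughout. Between members, 5 to 6 of 14 pairs passed when each rat was left out, and 4 after quantile normalization. Without control rat 12, 6 or 8, Plscr1 with Mx2 (1387283_at) passed at r = -0.464, -0.429 and -0.479. Plscr1 stayed between -0.73 and -0.62 log2 when each rat was left out. Mx2 (1387283_at) moved to -0.26 outside diestrus. Pairing of the arms by rat number was not established: of 10 shared numbers 5 had a correlation over 0.1 (median 0.117, from -0.389 to 0.358). With the number as a replicate block, paired over these rats, 2535 probe sets and 9 interferon list genes were called for treatment and 0 for stage. The other settings kept counts within 1.5 times.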
